A study of Mus musculus with 12 samples.

Results

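Chemokine RNA was described in whole kidneys of mice at postnatal day 15 (P15) for 10 genes: Ccl2, Ccl7, Ccl12, Ccl5, Cxcl1, Cxcl2, Cxcl10, Cxcl12, Cxcl16 and Cx3cl1. They were chosen by name as chemokines known from injured kidney, and were 10 of 55487 genes in the count table. All 10 were among the 19890 genes that passed the filter on low counts and were tested. The 12 libraries fell into 4 groups of 3. Cep120 KO libraries came from Hoxb7-Cep120 mice, in which the gene of a centriole protein is lost under a Hoxb7 driver, and were set against Cep120 controls. Pkd1 KO libraries came from Hoxb7-Pkd1 mice, which lose the gene of polycystin-1 under the same driver, and were set against Pkd1 controls. Control titles say het while their genotype label says WT. Hoxb7 drivers act in the ureteric bud and the collecting duct that grows from it, so other kidney cells are not targeted. The series was designed to ask which pathways change on Cep120 loss, and whether they are those changed in cystic kidneys that lack Pkd1.

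Chemokines are small proteins that bind receptors on leukocytes and steer their migration along gradients. In injured kidney, tubule cells, endothelium, fibroblasts and resident macrophages make those that bring in monocytes, neutrophils and T cells. Cxcl12 is instead a homeostatic chemokine, made steadily by stroma, podocytes and vessels and needed for kidney blood vessels to form. Cxcl16 and Cx3cl1 differ from the rest in being made as membrane proteins, which proteases can shed as soluble chemokines.

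Several facts of the libraries touch these genes. Total counts ran between 23070688 and 31837958 per library, so Cxcl2, the weakest of the 10, rested on 0 to 59 counts. The RNA of the targeted genes was no lower in KO than in control libraries: Cep120 was at 17.9 ± 2.16 CPM (a gene's count scaled to library size by TMM, mean ± SD, n = 3) in Cep120 KO and 16.2 ± 2.5 CPM in its controls, and Pkd1 at 28.8 ± 6.69 CPM in Pkd1 KO and 17.2 ± 4.0 CPM in its controls. The labels therefore have no support from this RNA. Whole-kidney RNA includes cells that the driver does not target, so these levels cannot decide the labels either way. Directions are given between libraries labelled KO and libraries labelled control. Genes detected (any count) numbered 30289 to 32705 in 6 libraries, namely all Cep120 KO, the first 2 Cep120 controls and the third Pkd1 control, and 23532 to 25652 in the rest. Xist RNA was under 1 CPM in all Pkd1 KO libraries and in Cep120 KO 1 and 2 but 53.6 CPM or more in all Pkd1 controls, so sex and genotype cannot be told apart in the Pkd1 line. Pkd1 control 3 held both Xist and Y-linked RNA (104 CPM). So did Cep120 KO 3 (192.8 and 17.4 CPM), Cep120 control 1 (58.66 and 27.71 CPM) and Cep120 control 2 (125.1 and 11.75 CPM). Xist was at 58.66 CPM or more in all Cep120 controls, so sex-linked RNA was unbalanced in the Cep120 line as well. Cep120 controls 1 and 2 were closer to each other (chi-squared per gene 5.298) than other pairs within a group (25.99 to 67.4). No label ties a library to its own animal, so p-values measure only the spread between libraries, which may be technical.

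Chemokine RNA was changed in Pkd1 KO kidneys, where Cxcl16, Cx3cl1, Ccl12 and Ccl7 rose and Cxcl12 fell. In edgeR's quasi-likelihood test (Benjamini-Hochberg adjusted p under 0.05) 5 of the 10 genes passed, against 44.4% of all genes tested. In 1 direction, 4 of 10 were higher (22.1% of all genes) and 1 of 10 was lower (22.4% of all genes), and the share that changed in either direction is near that of all genes. The median log2 fold change was 0.97 over the 10 chemokines and -0.04 over all genes tested. In Cep120 KO kidneys 0 of the 10 chemokines passed, beside 0.0% of all genes, and the median log2 fold changes were 0.12 and 0.01. By edgeR 1201 genes had an unadjusted p under 0.05 in that comparison, DESeq2 called 21 genes and voom called 0, and neither tool called any of the 10 chemokines. Fewer cells of a type and less RNA per cell cannot be told apart in RNA of whole kidneys, here or in any comparison that follows.

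**Figure D1:**
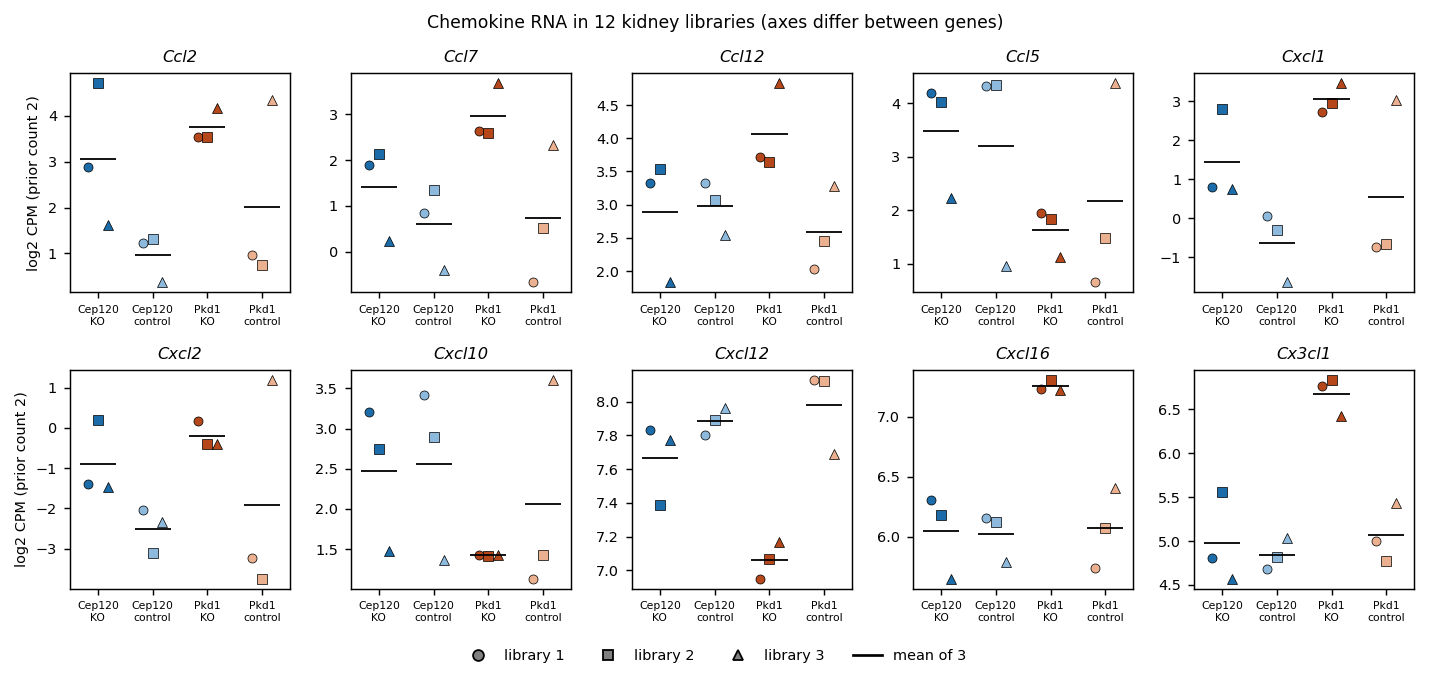
Level of each chemokine in every library as log2 CPM (prior count 2), with 1 panel per gene, KO left of its control in each line, symbols for library number and a bar for the mean of 3. Cxcl16 and Cx3cl1 lie higher and Cxcl12 lower in all Pkd1 KO libraries than in any other library, while Ccl2, Cxcl1 and Cxcl2 are high in Cep120 KO 2 and in Pkd1 control 3 as well as in Pkd1 KO.

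Ccl2, Ccl7 and Ccl12 (ENSMUSG00000035385, ENSMUSG00000035373 and ENSMUSG00000035352) attract monocytes through the receptor Ccr2, and Ccl7 also binds Ccr1. They lie close together in the RefSeq annotation of GRCm38.p6, with Ccl7 next to Ccl2 and only Ccl11 between Ccl7 and Ccl12. Ccl2 was at 7.27, 26.2 and 2.98 CPM in Cep120 KO 1 to 3, against 2.27, 2.40 and 1.22 CPM in the Cep120 controls. It was at 11.6, 11.5 and 17.9 CPM in Pkd1 KO and at 1.89, 1.61 and 20.4 CPM in the Pkd1 controls. All Cep120 KO libraries were thus above their controls, with Cep120 KO 2 far above the other 2, while in the Pkd1 line control 3 alone lay above every KO library. On the log2 scale Ccl2 gave 2.63 in the Cep120 line (SE 0.94, edgeR adjusted p = 0.757) and 0.78 in the Pkd1 line (SE 0.85, edgeR adjusted p = 0.480), and neither passed. Without Cep120 KO 2 the first value was 1.38, and without Pkd1 control 3 the second was 2.93 (edgeR adjusted p = 0.00691).

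Ccl7 was at 6.16, 5.99 and 12.8 CPM in Pkd1 KO, against 0.554, 1.36 and 4.95 CPM in the Pkd1 controls. Every Pkd1 KO library was above every control, as for 27.4% of all genes, and control 3 was again the highest control. The log2 rise was 1.86 (SE 0.70), with an adjusted p of 0.0470 by edgeR, just inside the threshold, and it was called under 11 of 26 alternative settings. Leaving out any library other than Cep120 KO 3, Cep120 control 3 or Pkd1 control 3 ended the call, with adjusted p-values by edgeR up to 0.160, and leaving out Pkd1 control 3 brought the log2 fold change to 3.14. Ccl7 stood at 3.65, 4.33 and 1.10 CPM in Cep120 KO and at 1.72, 2.48 and 0.690 CPM in Cep120 controls; these groups overlapped, and the log2 value was 0.89 (SE 0.71).

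Ccl12, a mouse chemokine close to Ccl2 in function, was at 13.1, 12.4 and 28.3 CPM in Pkd1 KO and at 4.01, 5.37 and 9.64 CPM in Pkd1 controls, with no overlap. The log2 rise was 1.5 (SE 0.46), with an adjusted p of 0.0176 by edgeR. Leaving out Pkd1 KO 3, Pkd1 control 1 or Pkd1 control 2 ended that call, with edgeR adjusted p-values of 0.0959, 0.0665 and 0.0605. In the Cep120 line the libraries of both groups overlapped, at 9.92, 11.5 and 3.48 CPM in Cep120 KO and 9.91, 8.34 and 5.76 CPM in Cep120 controls, and the log2 value was 0.05 (SE 0.45).

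Cxcl1 and Cxcl2 (ENSMUSG00000029380 and ENSMUSG00000058427) attract neutrophils through Cxcr2 and are classical targets of NF-kappaB, a transcription factor of inflammation. They are neighbours in the RefSeq annotation of GRCm38.p6. The 250 bases before their start sites are shown because both genes followed the same libraries, together with those of Cxcl10, which did not. The sequences are RefSeq's for GRCm38.p6, 5′ to 3′ on the gene's own strand, and capitals mark matches on either strand to GGAATTTCC, a core of the NF-kappaB motif, or GAAANNGAA, a core of the interferon-stimulated response element.
Cxcl1 (chr5:90890995-90891244, plus strand): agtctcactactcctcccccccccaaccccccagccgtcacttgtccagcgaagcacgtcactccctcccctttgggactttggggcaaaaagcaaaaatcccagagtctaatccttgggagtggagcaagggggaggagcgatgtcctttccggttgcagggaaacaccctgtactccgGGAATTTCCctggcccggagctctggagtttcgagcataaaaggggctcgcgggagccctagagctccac
Cxcl2 (chr5:90903649-90903898, plus strand): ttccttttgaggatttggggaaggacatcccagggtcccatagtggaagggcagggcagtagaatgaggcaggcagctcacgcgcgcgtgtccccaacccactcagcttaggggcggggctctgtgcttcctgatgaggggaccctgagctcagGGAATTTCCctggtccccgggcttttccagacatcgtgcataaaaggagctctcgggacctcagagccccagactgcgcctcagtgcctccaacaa
Cxcl10 (chr5:92348890-92349139, minus strand): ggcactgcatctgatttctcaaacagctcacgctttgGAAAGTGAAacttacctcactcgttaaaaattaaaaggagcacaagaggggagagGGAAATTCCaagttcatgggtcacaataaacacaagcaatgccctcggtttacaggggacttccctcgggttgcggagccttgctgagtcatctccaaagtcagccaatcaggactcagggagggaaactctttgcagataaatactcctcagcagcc
GGAATTTCC stood 70 to 62 bases before the start of Cxcl1 and 96 to 88 bases before that of Cxcl2, and its reverse complement 158 to 150 bases before that of Cxcl10. It occurred on either strand in 94 of 32851 promoter windows of this length (0.286%), which also included those of Cxcl3, a further neutrophil chemokine of the same cluster, and of the NF-kappaB feedback genes Nfkbia and Tnfaip3. GAAANNGAA stood 213 to 205 bases before the start of Cxcl10 and was in 7.13% of all windows. TGANTCA, the AP-1 motif, had a match in the Cxcl10 window alone among the chemokines and in 6.75% of all windows. Of the 6 chemokines with a RefSeq window, Ccl12, Cxcl12 and Cx3cl1 held none of these 3 motifs. A match describes these letters and is not a measured binding site.

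Cxcl1 was at 1.65, 6.84 and 1.60 CPM in Cep120 KO, against 0.966, 0.733 and 0.243 CPM in Cep120 controls. It was at 6.57, 7.73 and 10.9 CPM in Pkd1 KO and at 0.521, 0.553 and 8.16 CPM in Pkd1 controls. As for Ccl2, all Cep120 KO libraries lay above their controls, Cep120 KO 2 was the highest of them, and Pkd1 control 3 was about as high as the Pkd1 KO libraries. Log2 fold changes were 2.38 in the Cep120 line (SE 0.98, edgeR adjusted p = 0.757) and 1.44 in the Pkd1 line (SE 0.87, edgeR adjusted p = 0.195). The Cep120 value was 1.32 without Cep120 KO 2, and the Pkd1 value was 3.94 without Pkd1 control 3 (edgeR adjusted p = 0.000963).

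Cxcl2 was near the limit of detection, at 0.308, 1.07 and 0.284 CPM in Cep120 KO and at 0.168, 0.0407 and 0.122 CPM in Cep120 controls. In the Pkd1 line it was at 1.05, 0.677 and 0.682 CPM in KO and at 0.0326, 0 and 2.23 CPM in controls, where a count of 0 in control 2 allows up to 0.151 CPM. Pkd1 control 3 was thus the highest of the 12 libraries. The log2 fold change was 2.30 (SE 1.35, edgeR adjusted p = 0.757) in the Cep120 line, where the groups did not overlap, and 0.08 (SE 1.11, edgeR adjusted p = 0.962) in the Pkd1 line. Cxcl2 is also partly ambiguous, since 7.59% of its 31-base words in GENCODE M21 transcripts occur in Cxcl3. Set against Pkd1 controls 1 and 2 alone, the Pkd1 KO libraries held 71 counts against 1 count, a ratio of 40.6 after library scaling (exact binomial 95% interval 7.06 to 1630, counting error only).

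Ccl2, Cxcl1 and Cxcl2 therefore shared a pattern across the Cep120 line, with all KO libraries above all controls, as for 8.64% of all genes tested, and none passed the test. For Cxcl2 this held for gene counts only, since all its counts in Cep120 KO 1 and 3 were given to retained-intron forms. No chemokine had all Cep120 KO libraries below all controls, against 7.88% of all genes. The summed level of 5 injured tubule markers (Havcr1, Lcn2, Krt20, Vcam1 and Sox9), most of it from Lcn2 and Vcam1, was also highest in Cep120 KO 2 within its line and in Pkd1 control 3 among the controls, though that of Krt20 alone was not. The sums were 71.2, 228 and 79.6 CPM in Cep120 KO 1 to 3 and 95.3, 92.1 and 60.7 CPM in Cep120 controls, and 1190, 1090 and 966 CPM in Pkd1 KO against 69.2, 62.3 and 204 CPM in Pkd1 controls. Their part in the chemokine values was not tested. Among them Havcr1, which injured proximal tubule expresses, reached 12.7 CPM in Cep120 KO 2 and 8.47 CPM in Pkd1 control 3.

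Ccl5 and Cxcl10 (ENSMUSG00000035042 and ENSMUSG00000034855) draw T cells, Cxcl10 through the receptor Cxcr3, and are induced by interferon and, for Ccl5, made by T and NK cells themselves. Ccl5 was at 18.2, 16.2 and 4.61 CPM in Cep120 KO and at 19.9, 20.0 and 1.87 CPM in Cep120 controls. It was at 3.79, 3.48 and 2.12 CPM in Pkd1 KO, against 1.5, 2.71 and 20.6 CPM in Pkd1 controls. Cxcl10 ran alongside it, at 9.15, 6.67 and 2.70 CPM in Cep120 KO, 10.6, 7.33 and 2.52 CPM in Cep120 controls, 2.61, 2.58 and 2.62 CPM in Pkd1 KO and 2.12, 2.61 and 12.2 CPM in Pkd1 controls. Groups overlapped in both lines for both genes, and the levels did not follow the genotype labels. In the Pkd1 line the log2 fold changes were -1.40 for Ccl5 (SE 0.94, edgeR adjusted p = 0.239) and -1.12 for Cxcl10 (SE 0.66, edgeR adjusted p = 0.184), and without Pkd1 control 3 they were 0.58 and 0.12. The Cep120 line gave -0.10 for Ccl5 and -0.14 for Cxcl10, with SEs of 0.88 and 0.64.

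Ccl5 and Cxcl10, and no other of the 10, separated the 6 libraries with over 28000 genes detected from the 6 with fewer. Ccl5 was at 4.61 to 20.6 CPM in the libraries with more genes detected and at 1.5 to 3.79 CPM in the others. For Cxcl10 the ranges were 2.70 to 12.2 CPM and 2.12 to 2.62 CPM in the same sets. Of all genes tested, 7.19% were higher in each of those 6 libraries than in any other, and the part of library make-up in this was not tested. T and NK cell markers summed to 33.2, 8.07 and 9.87 CPM in Cep120 KO and 35.0, 34.4 and 9.57 CPM in Cep120 controls, and to 3.39, 4.80 and 4.13 CPM in Pkd1 KO and 7.85, 9.54 and 17.8 CPM in Pkd1 controls. Their part in the Ccl5 level was not tested.

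**Figure D2:**
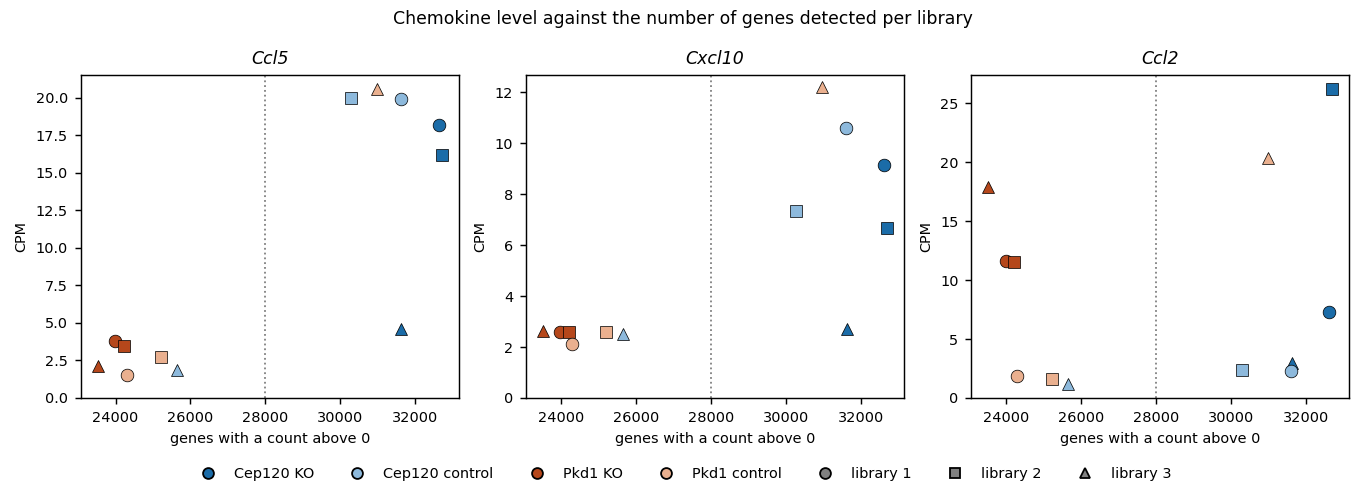
CPM of Ccl5, Cxcl10 and Ccl2 (vertical axes, starting at 0) against the number of genes with a count above 0 in each library (horizontal axis), coloured by group, with a dotted line at 28000 genes. Ccl5 and Cxcl10 are high only to the right of the line, and there not in Cep120 KO 3, whereas Ccl2 is high on both sides.

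Cxcl12 (ENSMUSG00000061353), the homeostatic ligand of Cxcr4 and Ackr3, was the chemokine that fell in Pkd1 KO kidneys. It was at 124, 134 and 144 CPM in Pkd1 KO, against 279, 279 and 207 CPM in Pkd1 controls. All Pkd1 KO libraries lay below all controls, as for 25.5% of genes tested, and also below every Cep120 library. Its log2 fold change was -0.93 (SE 0.15), with an adjusted p of 0.000306 by edgeR, and leaving out any 1 library kept it between -1.08 and -0.86. Cep120 KO libraries held 228, 168 and 219 CPM and Cep120 controls 222, 238 and 249 CPM, and the log2 value was -0.21 (SE 0.15, edgeR adjusted p = 0.767). Endothelial markers summed to 210, 193 and 243 CPM in Pkd1 KO and to 409, 391 and 371 CPM in Pkd1 controls, with 4 of 5 called lower (22.4% of all genes) and a median log2 fold change of -0.98. The part of endothelium in the Cxcl12 value was not tested.

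Cxcl16 (ENSMUSG00000018920), the membrane-bound ligand of Cxcr6 that also binds oxidised lipids, rose in Pkd1 KO kidneys to 150, 159 and 149 CPM, against 53.5, 67.3 and 85.2 CPM in Pkd1 controls. Its mean was 153 ± 5.24 CPM in Pkd1 KO and 68.6 ± 15.9 CPM in Pkd1 controls (SD, n = 3 each), and the groups were well apart. The log2 fold change was 1.15 (SE 0.19, edgeR adjusted p = 0.000365). Cep120 KO libraries, at 79.0, 72.7 and 50.3 CPM, overlapped Cep120 controls, at 71.7, 69.7 and 55.1 CPM, and the log2 fold change there was 0.04 (SE 0.19). The level is partly uncertain, because 18.5% of the 31-base words of Cxcl16 transcripts in GENCODE M21 are shared with the neighbouring gene Zmynd15.

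Cx3cl1 (ENSMUSG00000031778), or fractalkine, holds monocytes and macrophages that carry Cx3cr1 to the cell that displays it. It rose to 109, 114 and 85.9 CPM in Pkd1 KO, against 32, 27.3 and 43.1 CPM in Pkd1 controls. All Pkd1 KO libraries lay above all controls; the log2 rise was 1.60 (SE 0.24), with an adjusted p of 0.000198 by edgeR, and it stayed between 1.46 and 1.77 with any 1 library left out. Cep120 KO libraries were at 28.0, 47.1 and 23.6 CPM and Cep120 controls at 25.5, 28.2 and 32.8 CPM, with overlap, and the log2 value was 0.19 (SE 0.24, edgeR adjusted p = 0.850). Cep120 KO 2 again gave the highest value of its line, and without it the log2 fold change was -0.16.

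**Figure D3:**
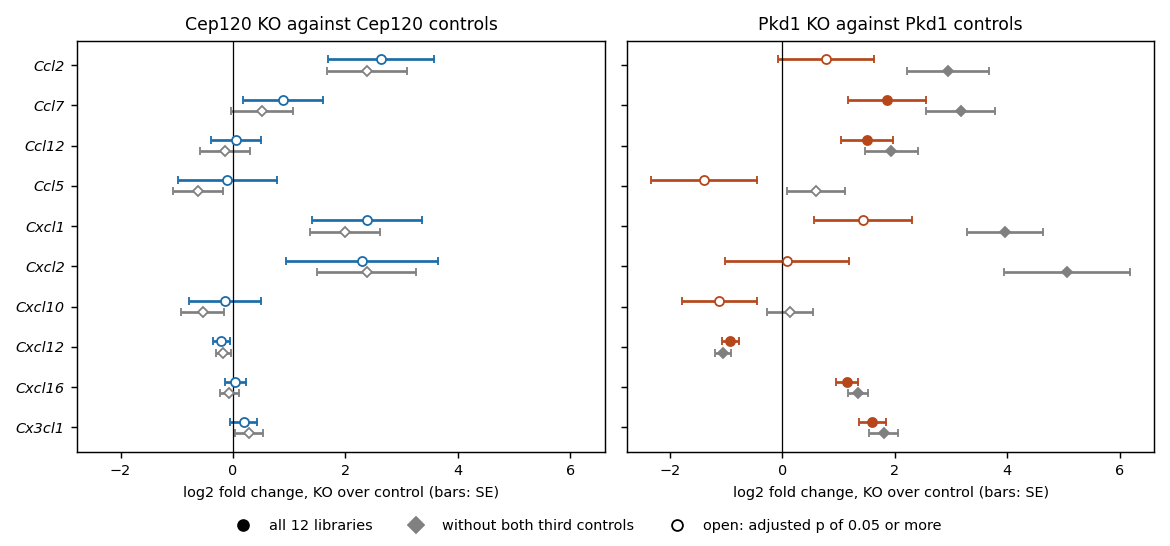
Log2 fold change of each chemokine, KO over control, with its standard error, for the Cep120 line on the left and the Pkd1 line on the right. Circles use all 12 libraries and grey diamonds the fit without control 3 of both lines; filled symbols have an adjusted p under 0.05, 5 genes with all libraries and 8 without those controls in the Pkd1 line, and 0 in the Cep120 line in either fit.

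More chemokines passed in the Pkd1 line when control 3 was left out. Without control 3 of both lines, all remaining libraries of the Pkd1 line had fewer than 28000 genes detected and all those of the Cep120 line had more, so each comparison lay within 1 class of library. Y-linked RNA was then at 0.0628 CPM or less in the remaining Pkd1 controls and at 134.5 to 153.1 CPM in Pkd1 KO. Y-linked RNA, like Xist, separated KO from control with all libraries too, and leaving out Pkd1 control 3 (104 CPM) widened the gap in Y-linked RNA. The Pkd1 comparison then called 8 of the 10 genes, 7 higher (23.4% of all genes) and Cxcl12 lower (21.0% of all genes), with a chemokine median of 1.87 and a median over all genes of 0.02. Ccl2, at 2.95 (SE 0.73, edgeR adjusted p = 0.00638), and Cxcl1, at 3.96 (SE 0.67, edgeR adjusted p = 0.000523), were called in that fit beside Cxcl2, and Ccl5 and Cxcl10 were not, at 0.60 (SE 0.52) and 0.14 (SE 0.41). Leaving out Pkd1 control 3 alone also called 8 of 10 (42.0% of all genes; 21.3% higher and 20.7% lower), and so did the fit of all libraries with genes detected as a term (47.6% of all genes; 24.8% higher and 22.8% lower). The Cep120 comparison called 0 of 10 in these fits, beside 0.00486% of all genes without control 3 of both lines and 0.00484% without Pkd1 control 3.

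Sex could not be separated from genotype in the Pkd1 line. A term for Xist presence was fitted, whose effect comes from the Cep120 KO libraries alone; with it, 0 of 10 chemokines and 2002 genes in all were called between Pkd1 KO and controls. The log2 fold changes in that fit were 0.56 for Cxcl16, 0.93 for Cx3cl1 and -0.79 for Cxcl12, and -0.13 for Ccl12, which changed sign. With Y-linked RNA as a term 5 of 10 were called, among them Ccl5 and Cxcl10, which were lower at -3.18 and -2.42 (edgeR adjusted p = 6.94e-05 and 7.21e-05), while Ccl7 and Ccl12 were not called. The share of all genes called in that fit is not given, so this count is not read as particular to chemokines. Among Pkd1 controls, Y-linked RNA was at 104 CPM in control 3 and at 0.0628 CPM or less in the others. Control 3 was also the highest Pkd1 control for Ccl5 (20.6 CPM) and Cxcl10 (12.2 CPM), and without it neither gene was lower in Pkd1 KO. The falls of Ccl5 and Cxcl10 with this term therefore lean on that library.

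The Pkd1 effect differed from the Cep120 effect for 3 of the 10 genes, against 28.1% of all genes (13.9% higher and 14.2% lower), in edgeR's test of the interaction. Cx3cl1 differed by a log2 value of 1.4 (SE 0.34, edgeR adjusted p = 0.00887) and Cxcl16 by 1.11 (SE 0.27, edgeR adjusted p = 0.00870), both with the larger value in the Pkd1 line. Cxcl12 differed by -0.72 (SE 0.21, edgeR adjusted p = 0.0224), and this call ended without any of Cep120 KO 1, Cep120 KO 3, Cep120 control 1, Pkd1 KO 1 or Pkd1 control 1 (edgeR adjusted p of 0.0527 to 0.0579). For Ccl2 the difference was -1.86 (SE 1.25, edgeR adjusted p = 0.280), and it was 0.30 without Pkd1 control 3. Without control 3 of both lines the difference was called for 5 of 10 genes (29.8% of all genes; 15.1% higher and 14.7% lower), with Ccl7 at 2.64 and Ccl12 at 2.08 added.

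Per length of transcript, in the deposited TPM (abundance scaled for transcript length and depth), Cxcl12 was the highest of the 10 chemokines in 3 groups. It stood at 109 to 132 TPM in Cep120 KO, 118 to 126 TPM in Cep120 controls and 123 to 153 TPM in Pkd1 controls, without overlap with the next gene, Cxcl16. In Pkd1 KO the order of the top 2 was the reverse, with Cxcl16 at 108 to 112 TPM above Cxcl12 at 77.2 to 89.6 TPM and no overlap. Below them in Pkd1 KO, by mean, came Ccl12, Cx3cl1, Ccl2, Ccl7, Cxcl1 and Ccl5, each overlapping its neighbour in the order except that Ccl5, at 7.12 to 13.0 TPM, lay above Cxcl10, at 3.31 to 3.65 TPM. Cxcl2 was the lowest of the 10 by median in each group, at 1.08 to 1.69 TPM in Pkd1 KO and 0 to 3.41 TPM in Pkd1 controls. Ccl5 was the third by mean in Cep120 KO and Cep120 controls, at 42.5 and 40.8 TPM, but overlapped Cxcl16 in both. Cxcl12 made up 21.1% to 23.3% of the summed TPM of the 10 genes in Pkd1 KO, against 31.8% to 67.9% in Pkd1 controls, and Cxcl16 made up 25.6% to 33.4% against 16.4% to 19.9%.

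**Figure D4:**
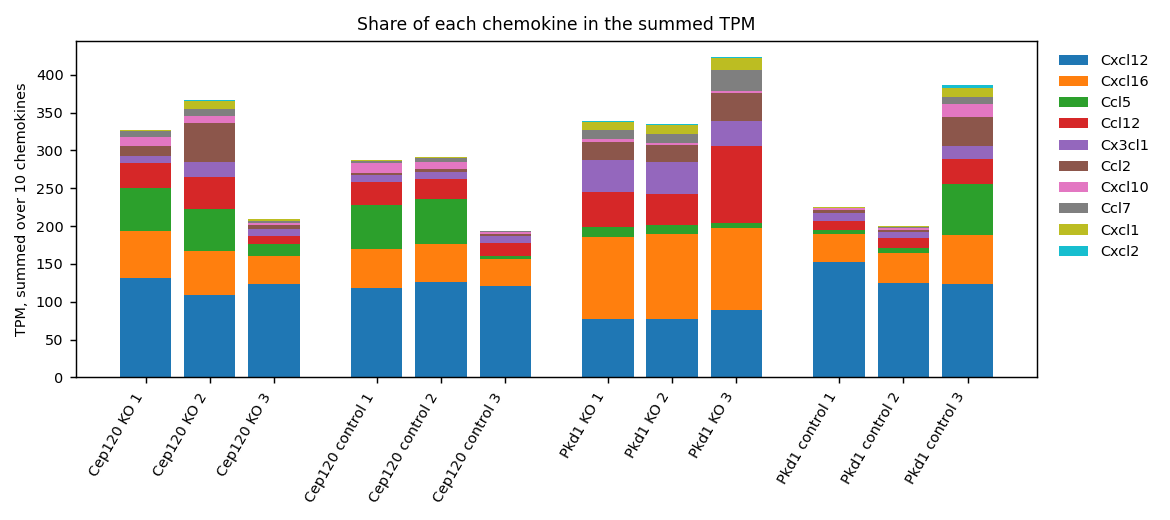
Stacked bars of deposited TPM for the 10 chemokines in each library (vertical axis starting at 0), KO left of its control in each line. The summed TPM is 335 to 424 in Pkd1 KO and 200 to 386 in Pkd1 controls, with Pkd1 control 3 the tallest Pkd1 control bar and the Cxcl12 segment shortest in Pkd1 KO.

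Chemokine receptors and decoy receptors moved in both directions in Pkd1 KO kidneys. Of 15 listed 13 were tested, and 5 were higher (22.1% of all genes) and 3 lower (22.4% of all genes), with a median log2 fold change of 1.04 against -0.04 over all genes; in the Cep120 line 0 passed in either direction, with a median of -0.19. Without control 3 of both lines 8 were higher (23.4% of all genes) and 3 lower (21.0% of all genes) in Pkd1 KO. Cx3cr1, the receptor of Cx3cl1, was at 54.5, 51.9 and 38.7 CPM in Pkd1 KO and 3.48, 6.43 and 16.9 CPM in Pkd1 controls, with a rise of 2.43 (SE 0.52, edgeR adjusted p = 0.00220). Ccr1, a receptor of Ccl5 and Ccl7, was at 39.5, 33.3 and 29.1 CPM in Pkd1 KO and 2.44, 2.31 and 5.67 CPM in Pkd1 controls, with a rise of 3.28 (SE 0.46, edgeR adjusted p = 0.000117). Ccr2, the receptor of Ccl2, Ccl7 and Ccl12, did not pass, at 14, 15.6 and 12 CPM in Pkd1 KO and 3.42, 3.16 and 11.4 CPM in Pkd1 controls (log2 fold change 1.20, edgeR adjusted p = 0.0954), and passed without control 3 of both lines at 2.07 (edgeR adjusted p = 0.000130).

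Cxcr6 fell while its ligand Cxcl16 rose. It was at 0.948, 0.870 and 0.538 CPM in Pkd1 KO, against 1.66, 2.91 and 4.46 CPM in Pkd1 controls, and its log2 fold change was -1.93 (SE 0.63, adjusted p = 0.0243 by edgeR). The receptors of Cxcl12 went in opposite directions: Cxcr4 rose by 1.04 (SE 0.39, edgeR adjusted p = 0.0462), and Ackr3, a receptor that takes Cxcl12 up without classical signalling, was lower by edgeR, at -0.46 on the log2 scale (SE 0.16, adjusted p = 0.0378). Cxcr2, the receptor of Cxcl1 and Cxcl2, was at 0.542 to 0.682 CPM in Pkd1 KO and 0 to 0.301 CPM in Pkd1 controls and did not pass (log2 fold change 1.93, SE 1.15). Cxcr3, the receptor of Cxcl10, had a log2 fold change of -0.07 (SE 0.76) and was not called. The decoy receptors Ackr4 and Ackr1 rose by 2.93 (SE 0.48) and 3.36 (SE 0.97).

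**Figure D5:**
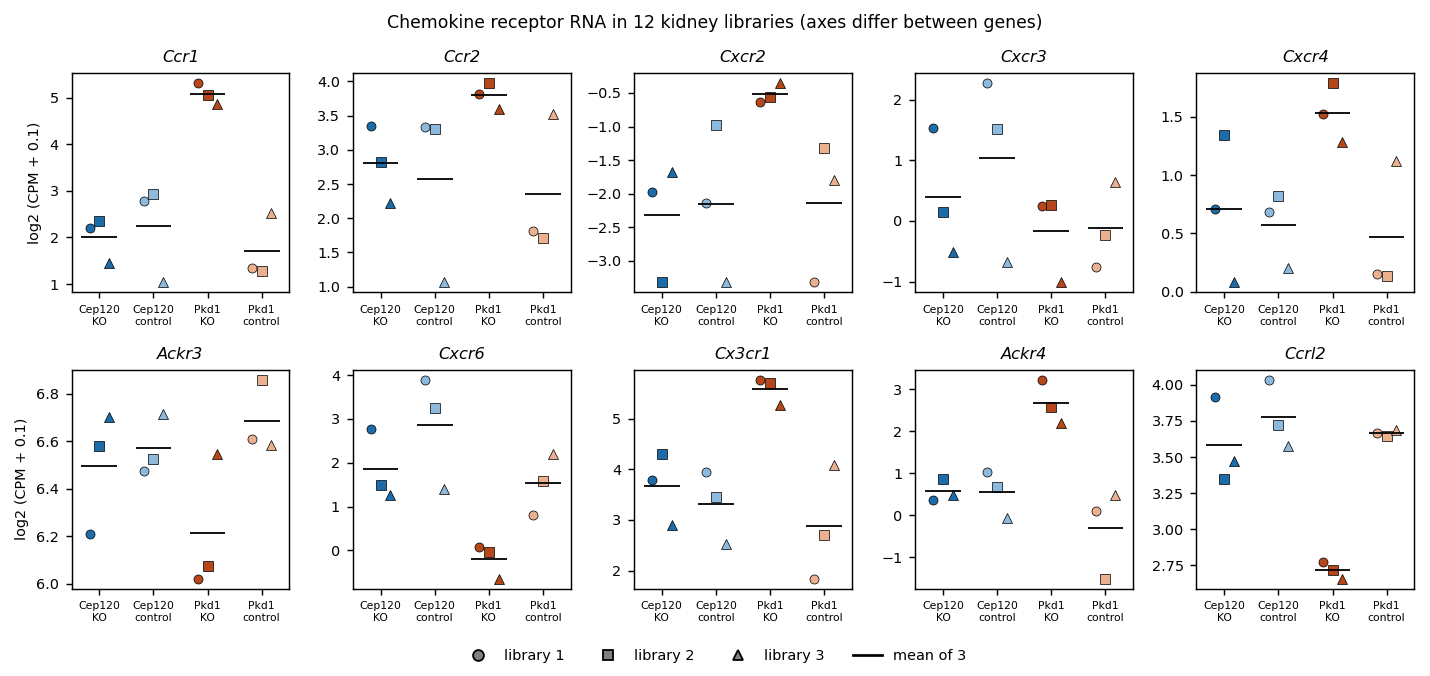
Level of 10 chemokine receptors in every library as log2 of CPM plus 0.1, with 1 panel per gene, KO left of its control in each line and a bar for the mean of 3. Ccr1, Cx3cr1 and Ackr4 lie higher and Cxcr6 and Ccrl2 lower in all Pkd1 KO libraries than in all Pkd1 controls, while Ccr2 and Cxcr4 of Pkd1 control 3 lie near the Pkd1 KO libraries.

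Of 25 further chemokine ligands 21 were tested, and 5 were higher and 5 lower in Pkd1 KO, beside 22.1% and 22.4% of all genes, with a median of 1.03. The counts were 10 higher and 4 lower without control 3 of both lines, beside 23.4% and 21.0% of all genes. Cxcl14, a chemokine of epithelia, was at 148, 151 and 139 CPM in Pkd1 KO and 35.9, 17.5 and 45.0 CPM in Pkd1 controls, a rise of 2.15 (SE 0.30, edgeR adjusted p = 9.79e-05). Ccl6 and Ccl9, mouse ligands of Ccr1 made by macrophages and other myeloid cells, rose by 3.13 (SE 0.50) and 2.98 (SE 0.45), and Pf4, a chemokine of platelets and macrophages, rose by 1.37 (SE 0.30). Cxcl11, a ligand of Cxcr3 induced by interferon as Cxcl10 is, was at 0 in all Pkd1 KO libraries, against 0.358, 0.502 and 0.113 CPM in Pkd1 controls, and was called lower by edgeR (adjusted p = 0.00276). Cxcl5, a neutrophil chemokine like Cxcl1, was at 0.192, 0.781 and 0.142 CPM in Cep120 KO and 0, 0.0407 and 0 CPM in Cep120 controls, with an edgeR adjusted p of 0.757. No ligand of the list passed in the Cep120 line.

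Among 8 proteases known to shed or trim chemokines, 2 were higher and 2 lower in Pkd1 KO, near the 44.4% of all genes called, with a median of 0.07. The counts became 3 and 3 without control 3 of both lines, beside 23.4% and 21.0% of all genes. Dpp4, an enzyme that clips and inactivates Cxcl12 and trims Ccl5 and Cxcl10, was at 81.4, 99.6 and 112 CPM in Pkd1 KO, against 296, 258 and 210 CPM in Pkd1 controls, and its log2 value was -1.39 (SE 0.18, adjusted p = 5.48e-05 by edgeR). Cpn1, the catalytic subunit of carboxypeptidase N, fell by 1.05 (SE 0.19). Mmp2, which cleaves Cxcl12 and Ccl7, rose by 1.81 (SE 0.19) and Ctss, a lysosomal protease that can shed Cx3cl1, by 2.83 (SE 0.58). Adam10 and Adam17, the main sheddases of Cxcl16 and Cx3cl1, had log2 fold changes of 0.03 and 0.11 and were not called.

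Genes that induce or answer NF-kappaB were higher in Pkd1 KO for 6 of 15 tested and lower for 0, beside 22.1% and 22.4% of all genes, with a median of 0.65. Nfkbia, the inhibitor that NF-kappaB itself switches on, was at 168, 198 and 185 CPM in Pkd1 KO and 93.3, 105 and 105 CPM in Pkd1 controls, a rise of 0.86 (SE 0.14, edgeR adjusted p = 0.000359). Birc3, Nfkbiz and Tnip1 rose by 1.06, 1.13 and 0.64. Without control 3 of both lines 13 were higher and 0 lower, beside 23.4% and 21.0% of all genes. Of 14 interferon response genes 1 was higher (Irf9, 0.75) and 3 were lower in Pkd1 KO, with a median of -0.02: Rsad2 fell by 2.54, Ifit3 by 1.07 and Isg15 by 0.91 on the log2 scale. Without control 3 of both lines 3 were higher and 2 lower, and the median was 0.21. The summed interferon genes were at 920, 325 and 432 CPM in Cep120 KO and 716, 661 and 388 CPM in Cep120 controls, and at 431, 405 and 348 CPM in Pkd1 KO and 417, 414 and 505 CPM in Pkd1 controls. In both lists 0 genes passed in the Cep120 line.

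Markers of several cell types moved with the chemokines in the Pkd1 line. Each count of markers called stands beside 22.1% of all genes called higher and 22.4% called lower. All 9 macrophage markers were higher, with a median of 2.63, and their summed level was 1180, 1120 and 825 CPM in Pkd1 KO against 110, 140 and 324 CPM in Pkd1 controls, so that control 3 was the highest control here too. Monocyte markers (2 of 4 higher, none lower) summed to 243 to 272 CPM in Pkd1 KO and 34.6 to 77.8 CPM in Pkd1 controls, most of it from Plac8, while Ly6c2 was at 0.711, 0.322 and 0.395 CPM in Pkd1 KO and 0.749, 1.26 and 1.85 CPM in Pkd1 controls (log2 fold change -1.42, edgeR adjusted p = 0.0616). Neutrophil markers (1 of 6 higher) summed to 6.51 to 13.0 CPM and 2.28 to 6.69 CPM in the same groups. T and NK cell markers were lower for 5 of 8, among them Gzma, at 0 in all Pkd1 KO libraries. Without control 3 of both lines only 2 of 8 were lower, near the 21.0% of all genes, and the median was -1.57, against -2.45 with all libraries. Ncr1 was also at 0 in all Pkd1 KO libraries but was not called with all libraries (edgeR adjusted p = 0.0584). It was at 0.0326, 0.1 and 0.794 CPM in Pkd1 controls. Of 4 B cell markers 3 were lower and Cd79b higher. Of 5 markers each, 4 were higher for fibroblasts and 3 for injured tubule, and 6 of 8 markers of kidney epithelium and podocytes were lower and 1 higher. Summed kidney epithelium and podocyte markers were at 1650 to 3100 CPM in Pkd1 KO and 5070 to 7450 CPM in Pkd1 controls, so the defining genes of kidney were present in every library. The marker that rose was Aqp2, at 572, 1400 and 1750 CPM in Pkd1 KO and 256, 41.8 and 357 CPM in Pkd1 controls. The sum therefore mixes opposite directions. The part of cell make-up in the chemokine values was not tested.

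Over the 12 libraries, several chemokines ran together, described here by Pearson correlations of log2 CPM that share groups and libraries and carry no test. Ccl2 had r = 0.96 with Cxcl1, 0.91 with Cxcl2 and 0.87 with Ccl7, and Cxcl1 had r = 0.90 with both Cxcl2 and Ccl7. Ccl5 and Cxcl10 had r = 0.96, Cxcl16 and Cx3cl1 had r = 0.92, and Ccl7 had r = 0.91 with Ccl12 and 0.87 with Cxcl16. Cxcl12 ran against Cx3cl1 (r = -0.91) and Cxcl16 (r = -0.88), and Ccl5 was near 0 with Cxcl12 (r = 0.04) and Cxcl16 (r = -0.08). Among 13612 genes compared, those most like Cxcl16 were the complement genes C1qc (r = 0.983) and C1qa (r = 0.982), both of which are on the macrophage list. Adamts2 (0.989), a procollagen protease, was among the genes most like Cx3cl1, and those most like Cxcl12 were Hibadh (0.984) and Gm26712 (0.983). Clca3a1 was the closest to Cxcl1 (0.984) and the second closest to Ccl2 (0.953), Lsp1, a leukocyte protein, the closest to Ccl7 (0.964), 5330417C22Rik to Ccl12 (0.941) and Fam126a to Cxcl2 (0.951).

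Transcript tables showed which forms the counts rested on. In Pkd1 KO 51.6% to 58.9% of Cxcl16 counts were given to the protein-coding form Cxcl16-201, against 39.3% to 48.3% in Pkd1 controls, and 34.3% to 37.6% against 43.4% to 51.9% to Cxcl16-202, a form annotated for nonsense-mediated decay. The groups did not overlap for either form, and no test was made. Cxcl12 came mainly from Cxcl12-202, at 58.1% to 60.5% of its counts in Pkd1 KO and 59.6% to 63.8% in Pkd1 controls, and Cxcl12-203, at 36.9% to 40.2% and 34.1% to 35.2% in the same groups. A retained-intron form took 34.9% to 52.8% of Cxcl1 counts in Cep120 KO and 18.5% to 39.1% in Cep120 controls, and 18.5% to 25.2% in Pkd1 KO and 11.1% to 21.3% in Pkd1 controls. For Ccl2 the retained-intron share was 17.8% to 24.7% in Cep120 KO, 14% to 36.3% in Cep120 controls, 6.18% to 14.9% in Pkd1 KO and 0% to 13.7% in Pkd1 controls. The protein-coding forms Cxcl2-201 and Cxcl2-202 each held 0 counts in Cep120 KO 1 and 3, and 6.4 and 23.8 counts in Cep120 KO 2. In Cep120 controls 1 to 3 Cxcl2-201 held 1.8, 1.0 and 3.0 counts and Cxcl2-202 held 2.2, 0 and 0 counts. Retained-intron forms of all genes together made up 3.58% to 4.70% of transcript counts in the 6 libraries with over 28000 genes detected and 3.09% to 3.96% in the others. Ccl7 was listed with 1 transcript, and Cx3cl1 came almost wholly from Cx3cl1-201, at 99.2% or more in each library.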

How the data were processed

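Whole-kidney RNA was sequenced in 12 libraries. Per the labels' protocols, total RNA was taken with Trizol and columns and a SMARTer Ultra Low kit gave the cDNA. Salmon 0.8.2, STAR 2.5.1a, featureCounts 1.4.6-p5 (Subread) and bcl2fastq, and the mouse build mm9, stand in the submitters' processing notes with no table named for each; strand use was not stated. The deposited gene and transcript tables hold estimated counts (21.6% of genes have a value that is not whole), and the authors also deposited TPM and moderated log2 CPM. Of 55774 gene lines for 55487 IDs, 287 repeats were dropped, and estimated counts were rounded.

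Counts were fitted in R 4.3.3 with edgeR 4.0.16 (filterByExpr, minimum count 10, TMM scaling, quasi-likelihood test, all 12 libraries in 4 groups, common biological coefficient of variation 0.238), with Benjamini-Hochberg adjustment over 19890 genes and calls at 0.05. CPM are TMM-scaled, and counts and intervals cover counting error only. The chemokines, the gene lists and the alternatives were chosen with earlier results of these data known. From each other list, up to 4 genes with the smallest p in the Pkd1 comparison and 2 in the Cep120 comparison may be named, beside receptors of the 10 chemokines. Adam10, Adam17, Ncr1, Aqp2 and the other promoters with a match were named after their values were seen. Many genes that this rule allows are not reported here. Likeness used genes whose mean log2 CPM (prior count 2) reached 1. Promoters are RefSeq windows of 250 bases before each start, and motifs were chosen with these sequences in view. Shared 31-base words were counted in GENCODE M21 transcripts. In 3 sets of simulated counts of 19890 genes, the fit recovered 77.9% of 4-fold and 44.4% of 2-fold changes in the Cep120 comparison (4.68% false calls) and 70.3% and 43.7% in the Pkd1 comparison (4.22% false calls), but only 63.8% and 18.5% for the difference between lines (3.02% false calls). Alternatives used RLE or upper quartile scaling, DESeq2 1.42.0, limma 3.58.1 (voom, and the deposited log2 CPM), other filters, other sets of libraries, and terms for replicate number, Xist, Y-linked RNA and genes detected.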

Additional observations from a re-analysis of the deposited data

Results flagged for a closer look

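The effect in the Pkd1 line and the effect in the Cep120 line differed by edgeR's interaction test for 3 of the 10 chemokines, which marked them for a closer look. The difference was 1.4 on the log2 scale for Cx3cl1, with effects of 1.60 in the Pkd1 line and 0.19 in the Cep120 line, and it was called under all 24 alternative settings that could test it. It was 1.11 for Cxcl16, with effects of 1.15 and 0.04 in the same lines, and was likewise called under all 24. For Cxcl12 it was -0.72, with effects of -0.93 in the Pkd1 line and -0.21 in the Cep120 line, and it was called under 17 of 24 settings, with edgeR adjusted p-values up to 0.0587. Genes detected per library and sex-linked RNA differ between the lines and groups. Fits with Xist presence, Y-linked RNA or genes detected as a term were among the 24 settings. Such terms cannot separate sex from genotype in the Pkd1 line, and the part of sex-linked RNA or genes detected was not tested further.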

How the results depend on the processing

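Values are log2 fold changes or counts of calls; the cause of each change below was not tested. Of the counts of calls under the alternatives 132 were within 1.5 times the main count and 20 were not; of the chemokine fold changes, 628 kept direction and side of the threshold, 32 gained a call, 29 lost it and 67 changed sign. In the Cep120 comparison DESeq2 called 21 genes, the fit without a filter 344 genes and 2 chemokines (Ccl2 and Cxcl1), the fit without control 3 of both lines 1 gene, and fits without 1 library 0 to 2 genes. In the Pkd1 comparison 9 chemokines were called without a filter, 8 with genes detected as a term, 8 without control 3 of both lines, 0 with Xist presence as a term (2002 genes in all), and 3 to 8 with 1 library left out: 3 without Pkd1 KO 3, Pkd1 control 1 or Pkd1 control 2, and 8 without Pkd1 control 3. For the difference 6 were called without a filter and 5 each with Y-linked RNA as a term, with genes detected as a term and without control 3 of both lines. Chemokine counts given without a count or share of all genes in the same fit are not read as particular to chemokines.

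Sign changes in the Cep120 comparison were as follows. With Xist presence as a term the value was -0.57 for Ccl7, -1.20 for Ccl12, -0.38 for Cxcl16 and -0.29 for Cx3cl1, and with Y-linked RNA as a term -0.14 for Ccl7, -0.49 for Ccl12 and -0.21 for Cxcl16. With genes detected as a term it was -0.20 for Ccl12 and -0.09 for Cxcl16, and without control 3 of both lines -0.14 and -0.07. With voom it was -0.08 for Ccl12 and 0.30 for Ccl5, with the deposited log2 CPM 0.42 for Ccl5 and 0.05 for Cxcl10, and with all 6 controls as 1 group 0.23 for Ccl5. With the replicate block it was -0.07 for Ccl12 and 0.22 for Ccl5. With 1 library left out, Ccl12 ran between -0.26 and 0.42, Ccl5 between -0.62 and 0.30, Cxcl10 between -0.54 and 0.32, Cxcl16 between -0.09 and 0.21 and Cx3cl1 between -0.16 and 0.38.

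In the Pkd1 comparison Xist presence as a term gave -1.71 for Ccl2, -0.13 for Ccl12 and -1.20 for Cxcl2, and Y-linked RNA as a term -0.50 for Ccl2, -0.03 for Cxcl1 and -1.27 for Cxcl2. Upper quartile scaling gave -0.03 for Cxcl2. Genes detected as a term gave 0.62 for Ccl5 and 0.04 for Cxcl10, and leaving out control 3 of both lines gave 0.60 and 0.14. With 1 library left out, Ccl5 ran between -1.90 and 0.58, Cxcl2 between -0.50 and 5.05 and Cxcl10 between -1.51 and 0.12.

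For the difference, genes detected as a term gave 0.54 for Ccl2, 1.23 for Ccl5, 1.92 for Cxcl1, 1.60 for Cxcl2 and 0.67 for Cxcl10, and leaving out control 3 of both lines gave 0.57, 1.22, 1.97, 2.69 and 0.69 for the same genes. Voom gave 0.31 for Cxcl1 and 0.36 for Cxcl2, the deposited log2 CPM 0.36 and 0.51, and the replicate block 0.27 for Cxcl1. With 1 library left out, Ccl2 ran between -2.32 and 0.30, Ccl5 between -1.80 and 0.68, Cxcl1 between -1.44 and 1.56, Cxcl2 between -2.79 and 2.75 and Cxcl10 between -1.44 and 0.27.

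Whether the replicate numbers pair the libraries is not known. Correlations of same-numbered deviations were 0.173, -0.0508 and 0.153 in the Cep120 line and -0.145, -0.0354 and -0.151 in the Pkd1 line. Differently numbered libraries of the Cep120 line reached 0.143. Deviations from a mean of 3 libraries depend on each other, so these values cannot decide the question. With the replicate block 0 chemokines were called in the Cep120 comparison, 6 in the Pkd1 comparison (7835 genes in all, against 8839 without it) and 3 for the difference (4472 genes against 5598). Cxcl2 was not tested with the filter of 5 CPM or, in the Cep120 line, with only the libraries compared, and the difference could not be fitted with only the libraries compared or with all 6 controls as 1 group. Depth limits Cxcl2 most, with 0 to 59 counts per library.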
